A study of Mus musculus with 21 samples.

Results

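The comparison described here set RPA binding sites of cells given an ATR inhibitor together with knockdown of Timeless against those of cells given the inhibitor alone. It took all 188 peaks of the list for the inhibitor with knockdown (ATRi+shTIM) and all 56 of the list for the inhibitor (ATRi), which is 244 of the 683 peaks in the 6 lists of the series. Peaks of the lists were paired where they overlapped by at least 1 bp. The cells of both groups were mouse embryonic fibroblasts immortalized by passaging, labelled ATR+/-, so the cells without the hairpin had that genotype too. Both groups received 1 µM of the compound labelled ATR-45 for 18 h. The ATRi+shTIM cells also carried a short hairpin against Timeless, and the labels name no hairpin for the ATRi cells. The ATRi group had 2 ChIP and 2 input libraries, and the ATRi+shTIM group 2 ChIP libraries and 1 input, of 21 libraries in all. No measure of Timeless RNA or protein was used here, so the knockdown itself was not checked.

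RPA is the complex that coats single-stranded DNA, and chromatin immunoprecipitation with an antibody to its RPA32 subunit marks places where such DNA persists. ATR is the checkpoint kinase recruited by RPA-coated DNA, and it restrains origin firing and protects stalled replication forks. Timeless, with its partner Tipin, forms the fork protection complex that travels with the replisome, couples the helicase to the polymerases and helps ATR signal to its effector kinase CHK1.

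A list held 1 set of peaks called on all ChIP libraries of its treatment against all its inputs. No spread between replicates could be had, no difference between the lists was tested, and read depth was unknown. Intervals given with percentages below are exact Clopper-Pearson 95% intervals over peaks. They cover counting error only, with peaks taken as independent, and most percentages are printed without one. Both ATRi+shTIM ChIP libraries were made with the same antibody lot, and the ATRi ChIP libraries with 2 others, so the lists had 0 lots in common. Antibody lot and knockdown therefore cannot be told apart in any value below.

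Of the 244 peaks, 1 overlapped a RefSeq promoter window (from 250 bases before to 50 bases after a gene's start, 32851 windows on GRCm38.p6). It was an ATRi peak with no ATRi+shTIM partner, at the start of Polg, which encodes the catalytic subunit of the mitochondrial DNA polymerase. The window lies at chr7:79466224-79466523 (minus strand, mm10), and the peak's summit at position 79466436 was 163 bp upstream of the start used for this window. The summit also lay inside the RefSeq gene body of Polg. Capitals in the window mark an arginine tRNA gene, n-TRtcg5, that lies in it on the opposite strand, and the summit fell inside that gene. The tRNA gene is shown on its own at chr7:79466419-79466491 (plus strand, 73 bases), with capitals on its match to the B box, the internal promoter element of RNA polymerase III, searched by its consensus on both strands. The consensus was found in 40 of the 32851 windows (0.122%). Both sequences are shown because 4 of the 10 sites absent from the ATRi+shTIM list had their summit in a tRNA gene.
Polg promoter window: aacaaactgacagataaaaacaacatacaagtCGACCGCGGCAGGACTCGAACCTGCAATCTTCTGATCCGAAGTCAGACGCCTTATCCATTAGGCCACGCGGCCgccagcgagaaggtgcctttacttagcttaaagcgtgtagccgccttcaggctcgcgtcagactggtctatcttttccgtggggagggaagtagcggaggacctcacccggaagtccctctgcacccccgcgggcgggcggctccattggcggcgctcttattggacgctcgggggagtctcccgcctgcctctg
n-TRtcg5: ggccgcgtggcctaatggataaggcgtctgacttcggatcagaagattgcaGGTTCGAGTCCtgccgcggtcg

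The ATRi+shTIM list was longer than the ATRi list and held most of it. Of the 56 ATRi peaks, 46 (82.1%, 69.6–91.1%) overlapped an ATRi+shTIM peak, and 10 were listed in ATRi only (17.9%, 8.91–30.4%), called lost below. Of the 188 ATRi+shTIM peaks, 45 overlapped an ATRi peak (23.9%, 18.0–30.7%), and 143 were listed in ATRi+shTIM only (76.1%, 69.3–82.0%), called gained below. The words gained and lost name presence in a list, not a measured change of signal. The ATRi list covered 41.4 kb and the ATRi+shTIM list 94.0 kb.

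The lists reached down to different levels. The weakest ATRi peak had a −log10 p of 29.9 from the authors' peak caller, and the weakest ATRi+shTIM peak 10.7. Of the gained peaks, 116 (81.1%) lay below the weakest ATRi peak on this scale. At or above that value the ATRi+shTIM list held 58 peaks, of which 31 (53.4%) overlapped an ATRi peak and 27 (46.6%) did not. With the ATRi+shTIM list held to those 58, 23 of the 56 ATRi peaks had no partner in it. The number of gained peaks thus depended on how deep the lists reached, and the caller's threshold is not given in the sources used here. On the ATRi+shTIM list's own scale of fold enrichment of ChIP over input, gained peaks had a median of 9.16 (2.71–41.0) and shared peaks a median of 18.1 (5.04–48.9). Of the 47 peaks of highest fold, 21 were gained (44.7%), and of the 47 of lowest fold, 43 were gained (91.5%), as the plot of peaks by fold and −log10 p shows.

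**Figure D1:**
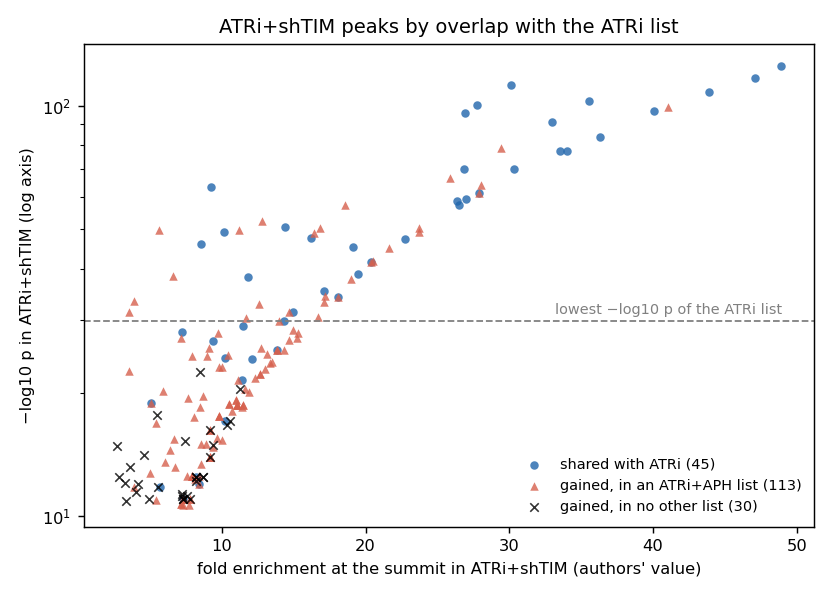
Each point is an ATRi+shTIM peak, with its fold enrichment over input on the x axis and its −log10 p on the y axis (log scaled), both the authors' values. Circles are the 45 peaks shared with ATRi, triangles the 113 gained peaks also in an ATRi+APH list and crosses the 30 in no other list, and 116 of the 143 gained peaks lie below the dashed line at the lowest −log10 p of the ATRi list, 29.9.

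Among the 10 peaks of highest fold in the ATRi+shTIM list, 9 were shared and 1 was gained. The gained peak lay inside Nkap, a gene for an NF-κB activating protein, on the X chromosome (chrX:37130452-37130683), with a fold of 41.0 and rank 4. It was followed at rank 13 by a peak 2661 bp from the olfactory receptor gene Olfr323 (chr11:58628562-58628891), with a fold of 29.4. The third lay 12154 bp from Dcbld1 (chr10:52221311-52221536) with a fold of 28.0. These 3 peaks were 232 bp, 330 bp and 226 bp wide, and all were listed in ATRi+APH at 9 h, the treatment with inhibitor and aphidicolin, an inhibitor of replicative polymerases.

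Several of the strongest gained peaks lay far from any protein-coding gene. The peak named for Pla2g4a, a cytosolic phospholipase gene, was 1106025 bp from it (chr1:148723486-148723709, fold 27.9). It belonged to the 7 ATRi+shTIM peaks on chromosome 1, where the ATRi list had 0. The peak nearest Trhde, which encodes an ectoenzyme that degrades thyrotropin-releasing hormone, was 478468 bp away (chr10:113920228-113920410, fold 23.7). Those nearest Adgrl4, an adhesion receptor gene, and Api5, an apoptosis inhibitor gene, had folds of 16.7 and 15.3 at 880057 bp and 505965 bp. In the whole set, 44 gained summits (30.8%) lay over 50 kb from a protein-coding gene, and 5 of the 45 shared ATRi+shTIM summits did (11.1%). Without the group of peaks at the end of the X chromosome described below, a choice made after seeing the data, the counts were 25 of 124 (20.2%) and 4 of 44 (9.09%).

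Other strong gained peaks stood closer to genes, but those nearest Rrm2, Inpp4b and Hdac2 were also over 50 kb away. L1cam, a neural cell adhesion gene, was 5491 bp from a peak of fold 25.9 (chrX:73848199-73848422), and Pgpep1, a pyroglutamyl peptidase gene, 4034 bp from one of 20.5. A peak of fold 21.7 lay 54566 bp from Rrm2, which encodes the small subunit of ribonucleotide reductase, the enzyme that makes deoxyribonucleotides. Summits fell inside Acaca (acetyl-CoA carboxylase, fold 20.4), Trpm3 (a cation channel, fold 18.999) and Cldn18 (a tight junction claudin, fold 16.4). Further peaks among the 20 with highest fold lay near Klf15, a transcription factor gene (17.1), and Arhgap25 (16.8), besides 2 beyond Asmt described next. Those nearest Inpp4b, a phosphoinositide phosphatase gene (18.1), and Hdac2, a histone deacetylase gene (15.3), were 84788 bp and 56196 bp away. The Klf15 peak was 265 bp from an ATRi peak at the same locus, which an overlap of 1 bp does not pair. In all, 57 gained summits lay in a gene of any kind (39.9%), close to the 19 of 45 shared ones (42.2%).

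The largest group of neighbouring gained peaks was at the far end of the X chromosome, beyond Asmt, which encodes the last enzyme of melatonin synthesis. Between chrX:170734797-170859471 the ATRi list had 1 peak and the ATRi+shTIM list had 20, of which 19 were gained, with folds of 7.15 to 23.7 over 11742 bp. The −log10 p of the 19 ran from 10.7 to 57.4, and most lay below the weakest ATRi peak at 29.9. This region was singled out after its values were seen. Its strongest peaks were 1448 bp wide with a fold of 23.7 (chrX:170842179-170843626) and 1800 bp wide with a fold of 18.6 (chrX:170813043-170814842). Of the 19, 16 were also in the ATRi+APH 18 h list. The X chromosome as a whole held 30 of the 143 gained peaks, on 34 ATRi+shTIM and 5 ATRi peaks.

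Grouping peaks of both lists that lay within 10 kb of each other gave 146 loci. Of these, 35 held peaks of both lists, 102 of ATRi+shTIM only and 9 of ATRi only. Of the 143 gained peaks, 122 lay in the loci of ATRi+shTIM only, and 89 of those 102 loci had a single peak. Gained peaks overlap no ATRi peak by definition, and the ATRi list held only 56 peaks, so a large share in such loci was mostly set beforehand. At the 35 loci of both lists the number of peaks was equal at 29, higher in ATRi+shTIM at 6 and lower at 0.

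Most gained sites were also listed after the inhibitor was combined with aphidicolin. The ATRi+APH 18 h list, the longest with 327 peaks, overlapped 112 of the 143 gained peaks (78.3%, 70.7–84.8%) and all 45 shared ones, against 83.5% of all ATRi+shTIM peaks. The 9 h list overlapped 28 gained peaks (19.6%) and 31 of the 45 shared ones (68.9%). The DMSO list (46 peaks) and the list for aphidicolin alone (1 peak) overlapped 0 of the 143, which allows a share of up to 2.55%. Of the 27 gained peaks at or above the weakest ATRi peak, 26 were in the 18 h list and 15 in the 9 h list (55.6%). All 27 were in at least 1 of them, and the Olfr323 peak was the exception to the 18 h list. Of the 31 shared ATRi+shTIM peaks at or above that value, all were in the 18 h list and 25 in the 9 h list (80.6%). The antibody lot of the ATRi+shTIM libraries was also used for 1 ChIP library each of DMSO, ATRi+APH 9 h and ATRi+APH 18 h, and its part in these overlaps was not tested.

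Gained peaks found in no other list numbered 30 (21.0%), and they were weak ones. Their folds ran from 2.71 to 11.2, their highest −log10 p was 22.5, and the best of them stood at rank 77 of the 188 by fold. The strongest by fold lay 311201 bp from Gpat3, a glycerolipid synthesis gene (chr5:101209995-101210419, fold 11.2). The next 3 lay beyond Asmt with folds of 10.6, 10.4 and 9.35, and the fifth inside Abcc8, which encodes the sulfonylurea receptor, with a fold of 9.18.

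Peaks over 1 kb numbered 11 of the 143 gained (7.69%), 11 of the 45 shared ATRi+shTIM peaks (24.4%) and 4 of the 10 lost ATRi peaks. Peaks under 300 bp were 77 of the gained (53.8%) and 21 of the shared ones (46.7%). Among peaks at or above the weakest ATRi −log10 p, 8 of 27 gained (29.6%) and 8 of 31 shared ATRi+shTIM peaks (25.8%) were over 1 kb, so the lower share of wide gained peaks was not seen among the stronger peaks.

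The 10 lost peaks had folds of 3.33 to 13.3 on the ATRi list's scale, with a median of 9.60 against 8.81 for the shared ATRi peaks. Their median width was 853 bp, and that of the shared ATRi peaks 270.5 bp. The strongest was the Polg peak (chr7:79466126-79467270, 1145 bp), which had a fold of 13.3 and stood at rank 6 of the 56. Its −log10 p of 59.9 was well above the list's weakest value of 29.9, and the nearest ATRi+shTIM peak lay 6140324 bp away.

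Sites with a tRNA gene within 1 kb were 4 of the 10 lost peaks, 0 of the 46 shared ATRi peaks and 0 of the 188 ATRi+shTIM peaks, against 7.14% of all ATRi peaks. Transfer RNA genes are short, highly transcribed genes of RNA polymerase III. All 4 summits fell inside a tRNA gene. Beside n-TRtcg5 at Polg, these were n-TLtag1 (chr7:120834963-120835807, fold 11.5), n-TQctg6 near the segmentation clock gene Hes7 (chr11:69124070-69124890, fold 10.4) and n-THgtg5 near Shf (chr2:122377336-122378503, fold 8.09). The distance from these peaks to the nearest ATRi+shTIM peak was at least 621541 bp. Of the other 4 lists, the ATRi+APH 18 h list had 7 peaks within 1 kb of a tRNA gene and the rest had 0, with 408 tRNA genes considered. The link to tRNA genes was noticed in these data, so no test was made of it.

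The other 6 lost sites shared no such feature. A peak at Egr1, an immediate-early transcription factor gene, had a fold of 10.1 (chr18:34861030-34861890, 861 bp). The Cldn34-ps peak, also of fold 10.1, had an ATRi+shTIM peak 764 bp away (chrX:77678443-77678606), so this locus held a peak in both lists that the 1 bp rule left unpaired. Peaks near Cd24a, a cell surface antigen gene (fold 9.14), inside Myo5a, a myosin motor gene (8.78), near Adgrl1, the latrophilin gene (7.97), and 97522 bp from Vmn2r87 (3.33) made up the rest. In the ATRi+APH 18 h list 8 of the 10 lost peaks were present, against 96.4% of all ATRi peaks, and the Egr1 and n-TQctg6 peaks were in no other list.

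The shared peaks formed 44 sites, of which 41 had 1 peak in each list. At these 41, 28 peaks were wider in ATRi+shTIM (68.3%) and 13 narrower, with a median ratio of 1.28 (interquartile range 0.935–1.49). The overlap took in at least 79.5% of the shorter peak at every one, and at 25 the ATRi peak lay wholly inside the ATRi+shTIM peak. Summed over the 41, the widths were 29173 bp in ATRi and 28601 bp in ATRi+shTIM.

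Narrow and wide sites, classed by their ATRi width, had medians on opposite sides of equal width. At the 24 sites under 300 bp in ATRi, 21 peaks were wider in ATRi+shTIM, and the median went from 166.5 bp to 234 bp (median ratio 1.42, interquartile range 1.28–1.54). The extension was on both sides, with medians of 36 bp on the left and 28 bp on the right. At the 12 sites over 1 kb in ATRi, 8 were narrower and 4 wider, with medians of 1814 bp and 1207 bp (median ratio 0.889, interquartile range 0.644–1.01). These classes were set on the ATRi width, and when they were set on the ATRi+shTIM width the median ratio of the wide sites was 1.02 (6 of 10 wider). With classes set on the geometric mean of both widths it was 0.889 (6 of 10 narrower). The narrow sites had a median ratio of 1.40 under both.

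At the same narrow sites the ATRi+APH 18 h peaks had a median width of 152 bp (24 sites), and ATRi+shTIM was the wider at 22 of them. At 19 of the sites the 9 h list also had a peak, with a median of 152 bp, and ATRi+shTIM was the wider at 18. The ATRi+shTIM peak was thus wider at most narrow sites than the peak of ATRi, ATRi+APH 9 h or ATRi+APH 18 h, taken list by list. The ATRi+shTIM list also reached lower, with a weakest −log10 p of 10.7. The weakest values were 29.9 in ATRi, 34.0 in ATRi+APH 9 h and 21.7 in ATRi+APH 18 h. Fragment size and depth, which bear on the width a caller gives, are unknown per list. The part of reach, fragment size and depth in the widths was not tested.

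**Figure D2:**
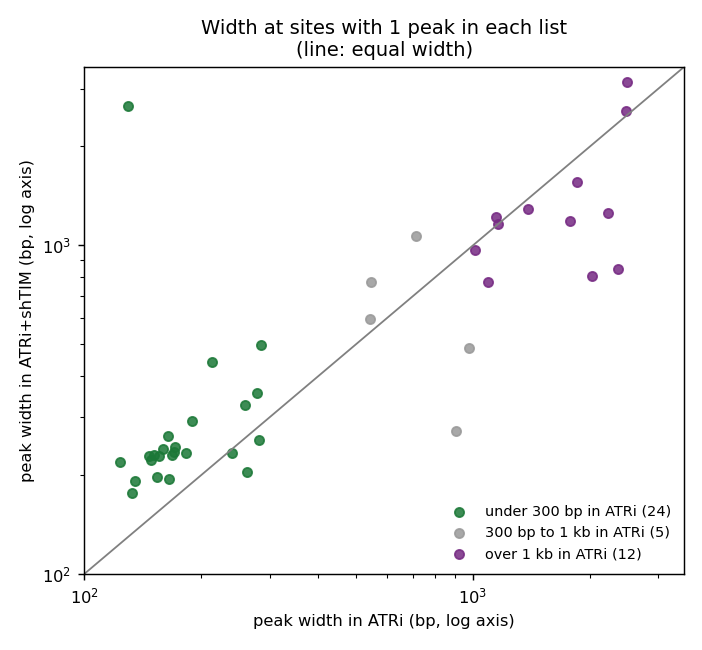
Peak width in ATRi (x axis, bp) against width in ATRi+shTIM (y axis, bp) at the 41 sites with 1 peak in each list, both axes log scaled, with the line of equal width. Of the narrow sites under 300 bp in ATRi, 21 of 24 lie above the line, and of those over 1 kb, 8 of 12 lie below it.

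Individual sites ranged widely. The largest ratio was at a site nearest Zfp825, a zinc finger gene, where a 130 bp peak in ATRi faced a 2662 bp peak in ATRi+shTIM (ratio 20.5). Next came Zmat1, with 213 bp and 442 bp (2.08), Pik3r6, which encodes a regulatory subunit of PI3-kinase gamma, with 124 bp and 219 bp (1.77), a site at the start of chromosome 10 with 285 bp and 498 bp (1.75), and Ccdc66 with 164 bp and 263 bp (1.60). The smallest ratios were at Prkci, an atypical protein kinase C gene, with 905 bp and 272 bp (0.301), Gata4, a transcription factor gene, with 2362 bp and 847 bp (0.359), and Gp9, a platelet glycoprotein gene, with 2024 bp and 806 bp (0.398). Prkdc, the gene of the DNA-dependent protein kinase catalytic subunit, had 977 bp and 486 bp (0.497) at a summit inside the gene, and Rnf145, a ubiquitin ligase gene, had 2229 bp and 1258 bp (0.564).

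Summits stayed near each other at most sites. The median distance between the summits of a pair was 16 bp (interquartile range 5–43), 26 of the 41 were within 25 bp, and 5 were over 100 bp apart (12.2%). The direction was mixed, with 24 toward higher coordinates in ATRi+shTIM and 17 toward lower. At the 24 narrow sites the median was 6 bp, and at the 12 wide sites 79 bp. Paired peaks overlap, so narrow peaks leave less room between summits than wide ones, and the distances were not set against width. The largest distances were 1304 bp near Zfp825, 275 bp near Ptgr2, a prostaglandin reductase gene, 195 bp near the amino acid transporter gene Slc7a10, 138 bp near Rnf145 and 107 bp near Mtss1, an actin-binding protein gene.

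**Figure D3:**
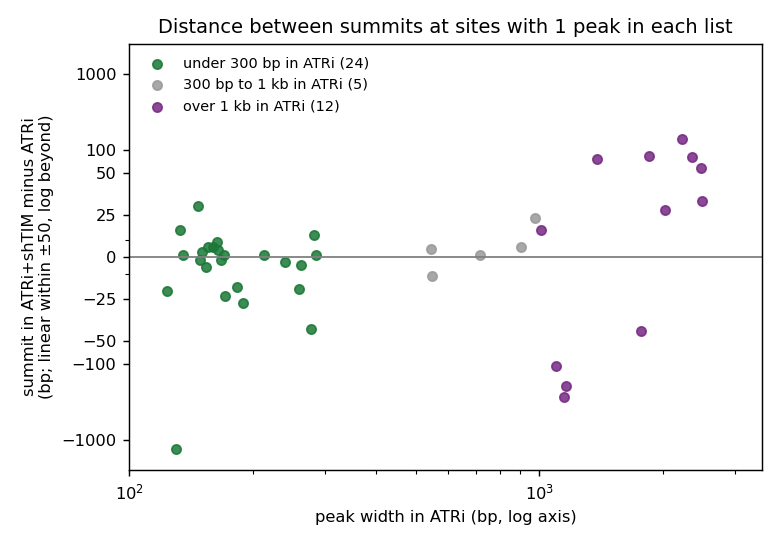
Position of the ATRi+shTIM summit minus that of the ATRi summit (y axis, bp, linear within ±50 bp and logarithmic beyond) against peak width in ATRi (x axis, bp, log scaled) at the 41 sites with 1 peak in each list. Of the narrow sites, 20 of 24 lie within 25 bp of 0, and the Zfp825 site stands apart at 1304 bp.

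Some wide peaks came in pairs with a gap of at most 2 kb. The ATRi list had 9 neighbouring pairs, of which 4 had both peaks at least 300 bp wide, near Gata4, Gp9, Gdf3 (a TGF-β family ligand gene) and Slc7a10. In all 4 both summits lay nearer to the edge beside the gap than to the outer edge. In ATRi+shTIM, with 45 neighbouring pairs, 13 had both peaks that wide, and of these both summits faced the gap in 6, 1 summit in 6 and neither in 1. These pairs were singled out after their values were seen. In ATRi+shTIM the gap went from 293 bp to 196 bp near Gata4, from 392 bp to 298 bp near Gp9, from 622 bp to 528 bp near Gdf3 and from 977 bp to 868 bp near Slc7a10.

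Edges of these pairs moved in opposite ways. All 8 inner edges, those beside the gap, lay further into it in ATRi+shTIM, by 35 to 64 bp. At all 41 sites with 1 peak in each list, ATRi+shTIM edges lay further out by medians of 33 bp on the left and 29 bp on the right. Of the 8 outer edges, 7 lay further in, by 60 to 1563 bp, and the outer edge of the right Gdf3 peak lay 611 bp further out. The left Gdf3 peak of ATRi faced 2 ATRi+shTIM peaks, of 306 bp and 254 bp, and the outermost edges of these 2 were used. Near Gdf3 the ATRi+shTIM peak beside the gap was thus under 300 bp wide. The left Gata4 and left Gp9 peaks lost most on their outer side, with 1563 bp and 1258 bp. The map of the pairs shows these edges.

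**Figure D4:**
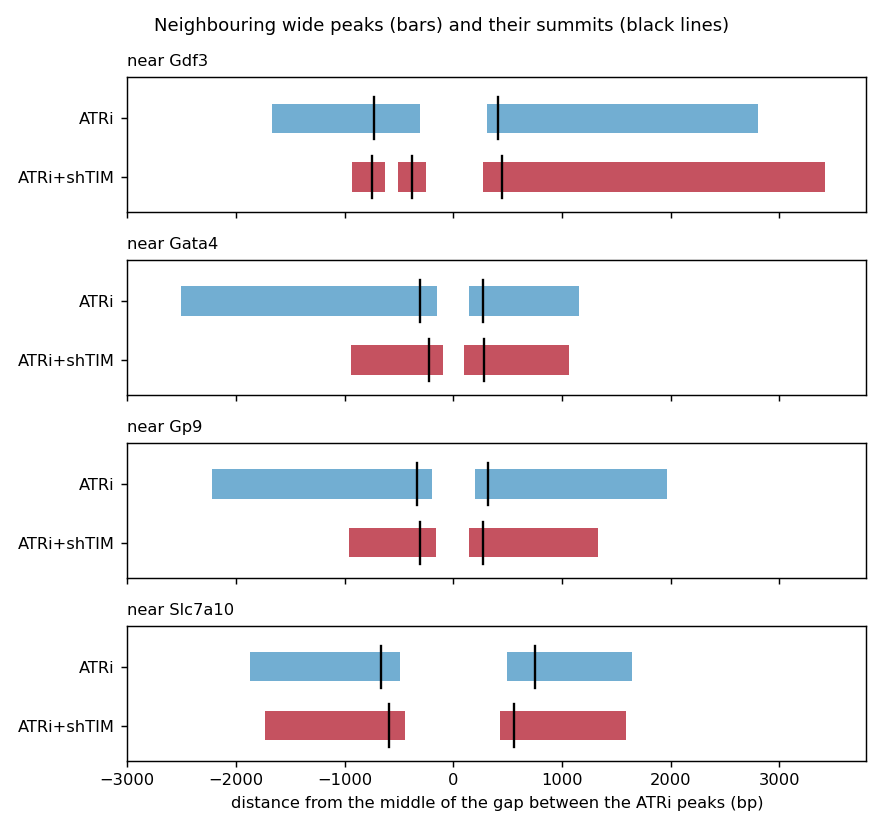
Extent of the 4 pairs of neighbouring wide ATRi peaks (blue) and of the ATRi+shTIM peaks facing them (red), with summits as black lines. The x axis is the distance in bp from the middle of the gap in ATRi. Near Gdf3 the left ATRi peak faces 2 ATRi+shTIM peaks. In ATRi+shTIM every gap is narrower, and 7 of the 8 outer edges lie closer to the gap.

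The order of the shared sites by fold was partly kept. Folds come from separate calls of the lists, so they are given side by side, and only ranks among the 44 sites are compared. Spearman's rho between the ranks was 0.564 by fold and 0.626 by −log10 p, a description over 44 sites that share libraries, inputs and the caller within each list. Of the 10 sites highest by fold in ATRi, 6 were among the 10 highest in ATRi+shTIM. The median change of rank was 8.5 places.

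Sites high in both lists included Cd163l1, a scavenger receptor gene (rank 4 in ATRi and 2 in ATRi+shTIM, folds 14.1 and 47.1), and Slc7a10 (rank 5 in both, folds 13.3 and 36.3). Gp9 was at ranks 8 and 3 (folds 11.7 and 43.9), Gdf3 at 3 and 6 (14.7 and 35.6), and Spon1, a secreted matrix protein gene, at 7 and 8 (12.2 and 33.5). A site in a predicted gene on chromosome 4 was at rank 6 in ATRi and rank 1 in ATRi+shTIM, and it was also in the DMSO list. The highest ATRi sites, near Gata4 and Rnf145, stood at ranks 12 and 17 in ATRi+shTIM (folds 15.9 and 27.9, and 15.0 and 26.5). A second peak near Gata4 was at ranks 9 and 20. The Klf15 site, where 2 ATRi peaks faced 1 ATRi+shTIM peak, was at 13 and 7 (11.1 and 34.0).

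Sites that stood much higher in ATRi+shTIM included 4 that were all under 300 bp in ATRi. Clec2e, a lectin gene, was at rank 26 in ATRi and 4 in ATRi+shTIM (folds 8.25 and 40.1). Tekt4, a gene for a tektin of the sperm tail, was at 30 and 10 (7.32 and 30.3), the Mup7 site, in the pseudogene Mup-ps1 of the major urinary proteins, at 31 and 13 (6.59 and 27.8), and Ccdc66 at 28 and 11 (7.50 and 30.1).

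The largest moves down were at Prkci, from rank 11 to 34 (folds 11.3 and 10.2), Mtss1, from 23 to 40 (8.78 and 8.44), Stam2, an endosomal sorting gene, from 16 to 32 (10.1 and 11.5), Prkdc, from 25 to 41 (8.59 and 7.29), and Rnf145, from 2 to 17. All 5 were at least 300 bp wide in ATRi. Over all shared sites, the 24 narrow ones had a median rank of 29 in ATRi and 21.5 in ATRi+shTIM, and the 14 over 1 kb had 12.5 and 18. Of the narrow sites 13 moved up and 10 down, and of those over 1 kb 3 moved up and 10 down. Sites over 1 kb held 6 of the 10 highest ranks in ATRi and narrow sites 4. A site high in ATRi has more room to move down, and the moves were not set against the ATRi rank.

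**Figure D5:**
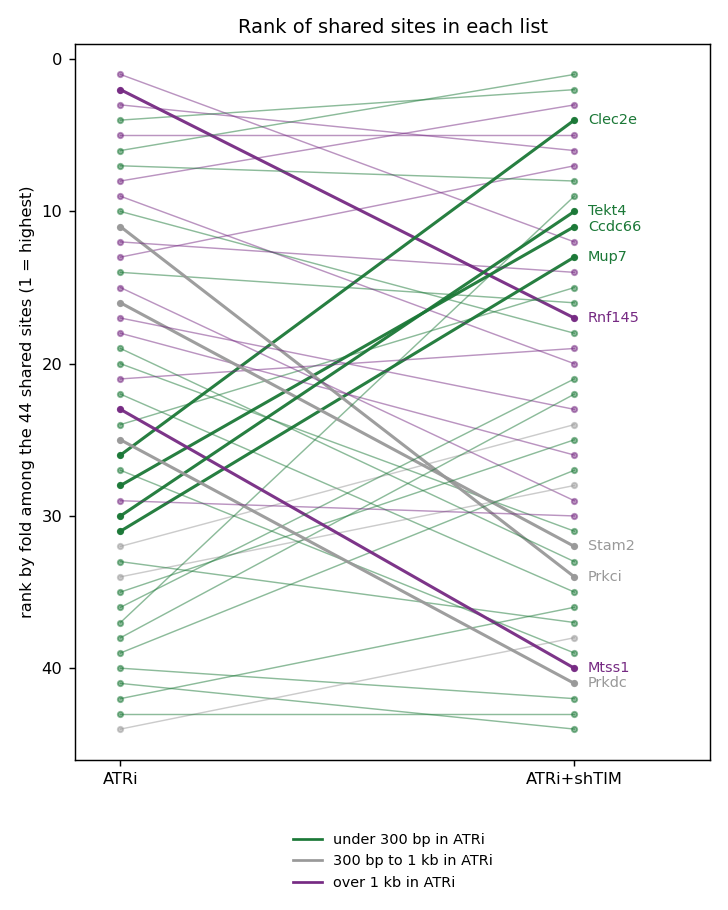
Rank by fold among the 44 shared sites in ATRi (left) and ATRi+shTIM (right), rank 1 being the highest fold, with a line per site, coloured by width in ATRi, and 9 large moves named. Clec2e goes from rank 26 to 4 and Tekt4 from 30 to 10, while Prkci goes from 11 to 34 and Prkdc from 25 to 41.

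Peaks overlapped a small part of the 21631 protein-coding genes, 0.074% in ATRi and 0.236% in ATRi+shTIM. The sets named next are small, so 0 overlaps in them is no result about these genes. They were 14 genes of fork protection and the ATR checkpoint, 18 of RPA and the replisome, 13 of fork reversal and restart, and 20 at common fragile sites, and 0 peaks of ATRi or ATRi+shTIM overlapped any of them. Of 557 protein-coding genes over 300 kb, 2 held a summit in ATRi (0.359%) and 9 in ATRi+shTIM (1.62%), against 0.0693% and 0.231% of all protein-coding genes. Longer genes offer more sequence for a summit, and the shares were not set against length. Shisa6, an AMPA receptor modulator gene, and Dlgap2, a postsynaptic scaffold gene, held shared sites with ATRi+shTIM folds of 26.9 and 9.27. The 7 others of the 9 were gained, near the share over all ATRi+shTIM peaks, of which 76.1% were gained. Among these 7, Trpm3 was highest at 18.999, then Pde1a (8.69), Negr1 (8.22), Bcas3 (7.65), Hydin (7.29), Cmss1 (5.47) and Nkain3 (5.38).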

How the data were processed

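RPA32 ChIP-seq peak lists, 1 per treatment, were used as deposited. Per the peak names, the authors called each on all ChIP libraries of a treatment against all its inputs. Tools listed in the submitters' processing notes, with no roles, are MACS2 2.1.0, STAR 2.5.2a, Picard 1.141, bcl2fastq 2.17.1.14 and SAMtools 0.1.19, with mm10 as the build. Per peak, the deposited columns give a score (10 times the −log10 p-value without decimals), the fold of ChIP over input as a ratio, the −log10 p-value, the −log10 q-value and the summit. Peak pairing, widths, summit distances and ranks were computed in Python 3.11.15 with pandas 2.3.3 and SciPy 1.17.1, and the pairing was tested on simulated intervals with known partners. Ties in fold took mean ranks. Coordinates are 1-based, and the RefSeq genes of GRCm38.p6 have those of mm10. Peaks are named by the protein-coding gene at the summit or else the nearest one, and genes with only a Gm or Rik number stayed unnamed. Of the sites this rule names, 3 are not reported here. Named sites are all lost peaks, the 20 gained peaks of highest fold, the 10 shared sites of highest fold in each list, the 5 extremes of rank, width ratio and summit distance, and up to 5 gained peaks in no other list. The sites and lists were chosen with earlier results of these data known. No genome sequence was used, so peak sequences, repeats, exons and introns were not analysed here. Read depth per library is not given in the sources used here, so its precision cannot be stated.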

Additional observations from a re-analysis of the deposited data

How the results depend on the processing

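No paired analysis was possible because each list pools its libraries and carries no replicate, and no library could be left out. Limits on strength shorten the lists by construction. With both lists at or above the weakest ATRi −log10 p, 53.4% of ATRi+shTIM and 58.9% of ATRi peaks were shared, 27 were gained and 23 lost, and 96.3% of the gained peaks were in ATRi+APH 18 h. With the ATRi+shTIM list limited to its 56 peaks of highest −log10 p, the shares were 55.4% and 58.9%, with 25 gained and 23 lost. With a −log10 q of at least 10, 30.8% of ATRi+shTIM peaks were shared and 92 were gained. With peaks under 1 Mb apart counted once, 88 were gained. With protein-coding genes only, 30.1% of gained summits lay in a gene. Setting width classes on the ATRi+shTIM width, an alternative chosen after seeing the data, turned the median ratio of sites over 1 kb to 1.02, and the cause was not tested. Leaving out the end of the X chromosome, also chosen after seeing the data, changed the share of gained summits over 50 kb from a coding gene from 30.8% to 20.2%.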
